A study of Mus musculus with 6 samples.

Results

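The genes that write, keep and remove DNA methylation, with the pair that guards it at imprinted genes, were read in sorted mouse Flk1+ mesoderm. The 10 genes were chosen by name: Dnmt1, Dnmt3a, Dnmt3b, Dnmt3l, Tet1, Tet2, Tet3, Uhrf1, Zfp57 and Trim28. Every probe set whose annotation gave 1 of these symbols and no other was used, which made 23 probe sets of the 45037 on the array that are not controls. For 9 of the 10 genes at least 1 probe set was bright enough to test, in all 22 probe sets, against 28362 probe sets tested over the whole array.

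DNA methylation in mammals sits mainly on the C of CpG dinucleotides. Dnmt3a and Dnmt3b place it on bare DNA, Dnmt3l is their partner without catalytic activity, and Dnmt1 copies it to the new strand after replication, guided by Uhrf1, which binds hemimethylated DNA. The TET enzymes oxidise methylcytosine, the first step of its removal. Zfp57 binds a methylated motif at imprinting control regions and recruits Trim28, also known as KAP1, a corepressor that brings histone and DNA methyltransferases and so keeps the imprint through the wave of demethylation in the early embryo. In the passage from embryonic stem (ES) cells to mesoderm, Dnmt3l and Tet1 are known to fall, while Tet2 is best known from blood stem cells.

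Total RNA of 6 samples was hybridised to Affymetrix mouse arrays, in 3 groups of 2. All cells came from embryoid bodies on day 4, after 2 days in a preparatory medium, and were sorted for the receptor Flk1. WT Scl+ and WT Scl- were the Flk1+hCD4+ and Flk1+hCD4- fractions of an ES cell line derived from R1, of (129/Sv x 129/Sv-CP)F1 origin. In that line a human CD4 knock-in at the Scl locus (gene Tal1) reports Scl, a transcription factor needed for blood, on the cell surface. SclKO was sorted on Flk1 alone from an Scl knockout line derived from J1 ES cells, of 129S4/SvJae origin. The titles of its samples nonetheless read Flk+Scl-. In any comparison with SclKO, the loss of Scl, the ES line and the gate cannot be told apart, and each genotype is 1 line. Nothing in the labels says that the 2 arrays of a group came from separate cultures, and a p-value here reflects array-to-array spread, which may be technical.

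Levels are natural logs of the deposited values, and differences are in log units. The base of the deposited values is not stated: 1 log unit is 2-fold if the natural log is the usual log2 output of the RMA method, or 2.72-fold in the values as deposited. Where a fold is given, the smaller reading comes first. A value under the 40th percentile of its array (4.54 to 4.59) is called dim and gives no exact level. Levels of different probe sets are not compared, since each responds to its target differently. Fewer cells that make a transcript and less of it per cell cannot be told apart in sorted bulk RNA.

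Tal1 itself read 8.65 and 8.78 in WT Scl+, 6.52 and 7.97 in WT Scl-, and 5.71 and 6.14 in SclKO. WT Scl+ replicate 2 stood apart from the rest: it correlated at r = 0.9687 across genes with the other WT Scl+ array and at 0.9408 to 0.9662 with the others. It was the highest or the lowest of the 6 arrays for 58.7% of all probe sets tested and for 15 of the 22 tested here. WT Scl- replicate 2 correlated at r = 0.9866 with WT Scl+ replicate 1 and at 0.9834 with the other WT Scl- array. The WT fractions thus did not separate cleanly by array correlation. Of the markers fixed for the cell types, all 9 mesoderm markers with a probe set, Kdr included, were above the dim limit on all arrays. Their median difference for WT Scl+ against WT Scl- was -1.13 log units. Without overlap, 5 of 9 lay below and 1 above (21.2% and 16.6% of all probe sets tested). For the 8 primitive streak markers the median was -1.38, with 7 below and 0 above. None passed the test given below. Of 10 endoderm markers, 6 were above the limit on all arrays and 2 were under it on all. The 12 blood and endothelial markers averaged 7.77 and 8.14 in WT Scl+, 5.28 and 6.85 in WT Scl-, and 5.2 and 5.68 in SclKO. The 8 epiblast markers averaged 9.27 and 9.38 in SclKO, above every WT array (7.69 to 9.09).

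The promoters of these genes differ in the very dinucleotide that the enzymes act on. RefSeq sequence of the assembly GRCm38.p6 was matched by symbol for all 10 genes, giving 19 windows of 300 bases, from 250 bases before a listed transcript start to 50 after it. The 250 bases before the start are shown for Tet2, Tet3, Dnmt3b and Trim28, which have 1 listed start each and are the genes with an unadjusted p under 0.05 in some comparison below, and for the start of Zfp57 with the fewest CpG as a contrast. Each CpG is in capitals, and all are written 5′ to 3′ on the strand of the gene.
Tet2: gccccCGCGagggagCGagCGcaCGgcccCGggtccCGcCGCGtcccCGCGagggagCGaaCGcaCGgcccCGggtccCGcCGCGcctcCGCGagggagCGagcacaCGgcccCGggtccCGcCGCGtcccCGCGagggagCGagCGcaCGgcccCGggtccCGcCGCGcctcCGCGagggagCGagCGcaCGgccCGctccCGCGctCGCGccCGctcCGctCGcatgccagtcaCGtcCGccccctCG
Tet3: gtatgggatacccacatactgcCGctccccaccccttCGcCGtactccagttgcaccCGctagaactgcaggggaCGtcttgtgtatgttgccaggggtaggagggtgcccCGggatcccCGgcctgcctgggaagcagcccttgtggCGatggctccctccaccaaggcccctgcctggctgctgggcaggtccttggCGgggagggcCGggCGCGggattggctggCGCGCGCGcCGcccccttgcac
Dnmt3b: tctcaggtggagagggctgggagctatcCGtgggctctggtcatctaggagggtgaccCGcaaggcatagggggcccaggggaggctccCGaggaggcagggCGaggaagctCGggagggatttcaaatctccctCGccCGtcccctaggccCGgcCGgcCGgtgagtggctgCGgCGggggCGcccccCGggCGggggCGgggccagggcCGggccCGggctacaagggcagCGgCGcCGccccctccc
Trim28: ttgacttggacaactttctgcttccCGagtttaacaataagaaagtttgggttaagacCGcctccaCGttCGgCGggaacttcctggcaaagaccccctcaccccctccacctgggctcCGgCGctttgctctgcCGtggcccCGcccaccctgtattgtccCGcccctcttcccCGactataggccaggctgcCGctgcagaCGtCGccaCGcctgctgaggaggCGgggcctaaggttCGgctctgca
Zfp57: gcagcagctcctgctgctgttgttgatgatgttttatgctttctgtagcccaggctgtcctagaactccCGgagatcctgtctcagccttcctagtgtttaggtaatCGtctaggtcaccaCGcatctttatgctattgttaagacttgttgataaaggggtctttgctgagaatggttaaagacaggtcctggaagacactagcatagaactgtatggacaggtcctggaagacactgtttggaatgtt
These lie at chr3:133544391-133544640 (minus strand), chr6:83441679-83441928 (minus), chr2:153649199-153649448 (plus), chr7:13023902-13024151 (plus) and chr17:37003416-37003665 (plus). The Tet2 stretch holds 51 CpG, much of it in a repeated unit that can be seen in the capitals, against 17 in Tet3, 21 in Dnmt3b, 17 in Trim28 and 3 in Zfp57.

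Over the full 300 bases, the Tet2 window held 57 CpG, as many as or more than 99.9% of all 32851 RefSeq windows. The windows of Dnmt3a held 46, 47 and 18 and that of Dnmt3b 30, while the median of all windows was 7. Dnmt3l, with 3, 4 and 6, and Zfp57, with 4, 6 and 9, had CpG-poor windows or windows near that median. The listed starts of Dnmt1 ranged from 2 to 33. In all, 13 of the 19 windows lay above the median, and the set includes overlapping windows and starts whose use in these cells was not measured. Of 4 motifs searched on both strands, CAGATG (an E-box that Scl can bind with its partners) was in 1 window, of Dnmt3l, and in 17.2% of all windows. The motif AGATAA, known for binding by the blood factor Gata1, was in 2 windows of Zfp57 (11.2% of all). TTTGGCGC, an E2F motif, was in 1 window of Dnmt1 (0.514% of all), and the ETS motif CCGGAAGT was in none (3.89% of all). A match is only a match of letters.

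**Figure D1:**
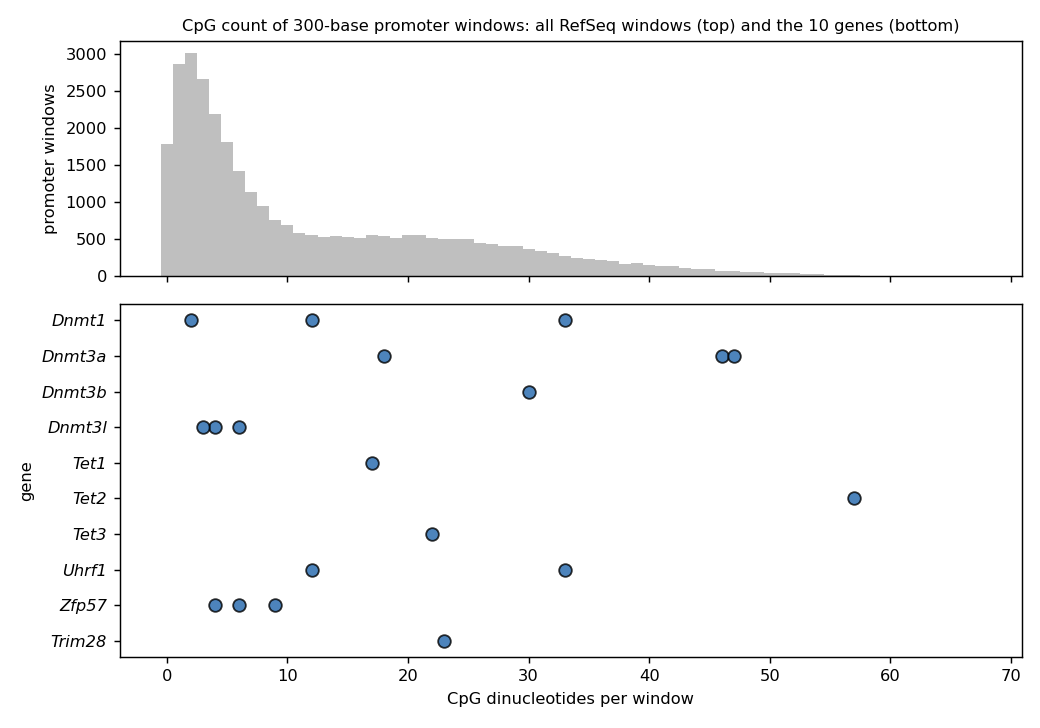
CpG dinucleotides per 300-base RefSeq promoter window (x axis) as a histogram of all 32851 windows (top, y axis in windows) and for each listed start of the 10 genes (bottom, 1 point per start). The single Tet2 window lies at 57, while every window of Dnmt3l and Zfp57 lies under 10.

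No probe set of these genes passed the test in any comparison. limma called 0 of the 22 at an adjusted p under 0.05 for WT Scl+ against WT Scl- (0.0% of all probe sets tested), for SclKO against WT Scl+ (0.0106%) and for SclKO against WT Scl- (0.0106%). At an unadjusted p under 0.05 the counts were 0, 3 and 2 of 22, where 9.38%, 13.0% and 5.48% of all probe sets tested passed. The differences below are therefore given as measured sizes with their errors, and those of the main probe set, the one with the highest mean, come first. The 3 comparisons share arrays and are not independent of each other.

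**Figure D2:**
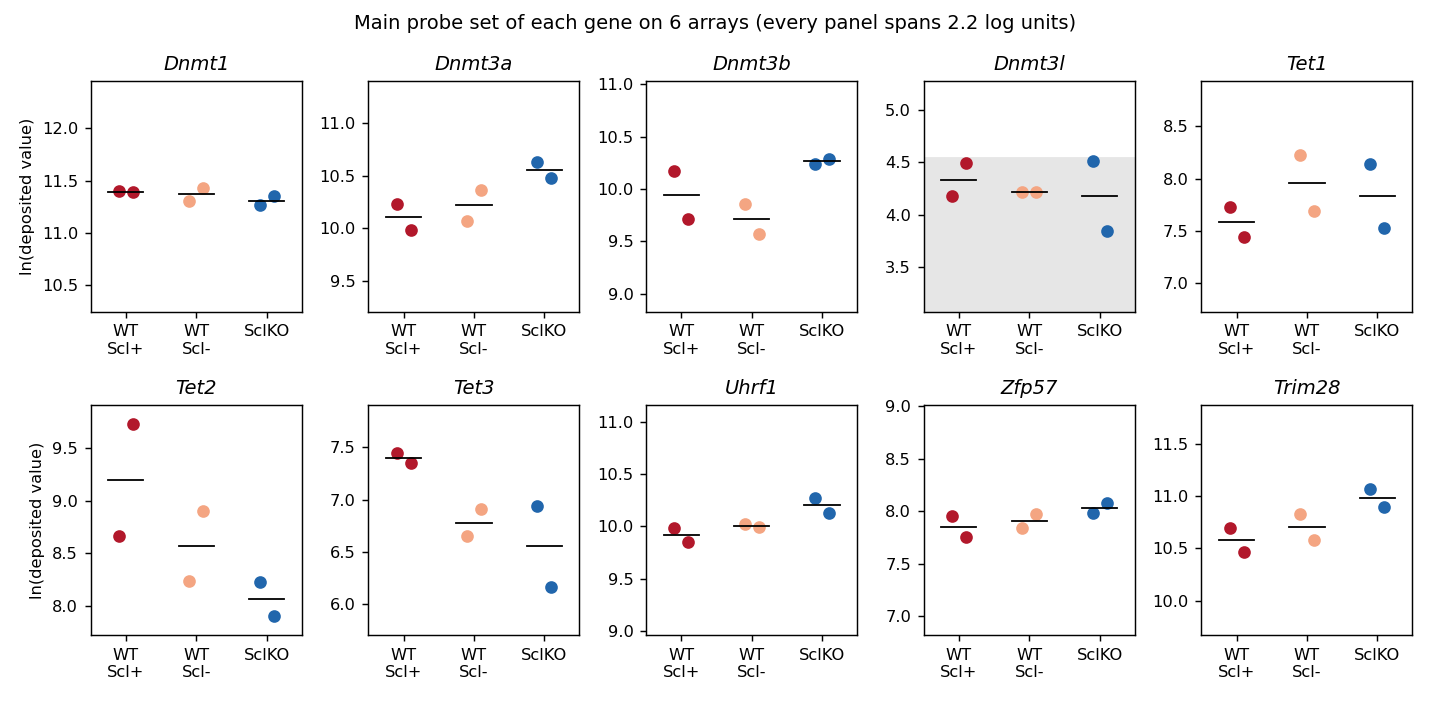
Natural log of the deposited value (y axis) of the main probe set of each gene on the 6 arrays, by group (x axis). Points are arrays, black lines are group means, every panel spans the same height, and grey marks values under the dim limit. Tet2 and Tet3 are highest in WT Scl+, Dnmt3a, Dnmt3b, Uhrf1, Zfp57 and Trim28 are highest in SclKO, Dnmt1 hardly moves and Dnmt3l is dim throughout.

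Of the maintenance pair, Dnmt1 was close to flat and Uhrf1 read a little higher in SclKO, without passing the test. Dnmt1, which copies methylation at the replication fork, read 11.4 and 11.39 in WT Scl+, 11.31 and 11.43 in WT Scl-, and 11.27 and 11.35 in SclKO. All 6 arrays thus lay within 0.16 log units. A range as small as this or smaller was found for 1.93% of all probe sets tested, at any brightness. SclKO stood -0.09 log units from WT Scl+ (SE 0.15, 95% interval -0.45 to 0.28, limma adjusted p = 0.835). WT Scl+ minus WT Scl- was 0.02 (95% interval -0.34 to 0.39). A second Dnmt1 probe set ranged over 0.13 log units and the third over 0.29. On the third, both WT Scl+ arrays (9.7 and 9.79) lay above the other 4 (9.49 to 9.59), a difference from WT Scl- of 0.2 log units (SE 0.15, limma adjusted p = 0.721).

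Uhrf1, the reader of hemimethylated CpG that recruits Dnmt1, read 9.98 and 9.85 in WT Scl+, 10.02 and 9.99 in WT Scl-, and 10.27 and 10.13 in SclKO. Both SclKO arrays were above all WT arrays. The difference was 0.29 log units from WT Scl+ (SE 0.15, limma adjusted p = 0.491) and 0.2 from WT Scl- (SE 0.15, limma adjusted p = 0.96), the latter 0.13 without SclKO replicate 1. The other Uhrf1 probe set gave 0.11 and 0.18, with WT Scl+ replicate 2 as its highest array (9.48), and the 2 probe sets correlated at r = 0.25 over the 6 arrays. Genes of S phase, when Dnmt1 and Uhrf1 are made, averaged 10.46 and 10.26 in SclKO, 10.2 and 10.05 in WT Scl+, and 10.36 and 10.27 in WT Scl- over 15 genes, all above the dim limit. Their part in the Uhrf1 values was not tested.

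Both de novo enzymes read highest in SclKO. Dnmt3a stood at 10.23 and 9.98 in WT Scl+, 10.07 and 10.37 in WT Scl-, and 10.63 and 10.48 in SclKO, with no overlap between SclKO and the WT arrays. It differed from WT Scl+ by 0.44 log units (SE 0.19, 1.36-fold or 1.56-fold, limma adjusted p = 0.396). From WT Scl- the difference was 0.33 (SE 0.19, limma adjusted p = 0.937), and 0.18 without WT Scl- replicate 1. The 5 Dnmt3a probe sets were not alike: 4 gave a positive difference from WT Scl+, up to 0.44, and the fifth gave -0.2. The lowest correlation between 2 of them over the 6 arrays was -0.26 and the highest 0.92, so the size holds for the probe set used. WT Scl+ replicate 2 was the lowest array on 3 of the 5, and without it the difference of the main probe set from WT Scl+ was 0.32.

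Dnmt3b, the de novo enzyme of the epiblast, read 10.17 and 9.71 in WT Scl+, 9.86 and 9.57 in WT Scl-, and 10.24 and 10.29 in SclKO. The SclKO arrays lay above all WT arrays, though WT Scl+ replicate 1 came close to them. Against WT Scl- it was 0.55 log units (SE 0.21, 1.47-fold or 1.74-fold, 95% interval 0.03 to 1.07), which did not pass after adjustment (limma adjusted p = 0.898). SclKO minus WT Scl+ was 0.33 (SE 0.21, limma adjusted p = 0.556), and 0.09 without WT Scl+ replicate 2. Its other probe set followed it closely (r = 0.99 over 6 arrays), with 0.65 log units from WT Scl- (SE 0.24) and 0.34 from WT Scl+. On that probe set SclKO overlapped with WT Scl+: SclKO replicate 2 and WT Scl+ replicate 1 both read 8.99. Marker lists differed in the same comparisons, with 0 genes called by limma in any of them. Of the epiblast markers, all 8 had a positive difference from WT Scl+ (56.9% of all probe sets tested) and 7 of 8 from WT Scl- (52.1% of all). Their medians were 0.58 and 0.65 log units, and 3 and 2 of them had an unadjusted p under 0.05 (13.0% and 5.48% of all, either direction). Of the primitive streak markers, all 8 lay above WT Scl+ without overlap (24.4% of all, median 1.8 log units). From WT Scl-, 7 of 8 had a positive difference (52.1% of all, median 0.43). The 9 mesoderm markers had medians of 1.06 and -0.03. The ES cell markers were mixed. Of 12 tested, 4 lay above and 4 below WT Scl+ without overlap (24.4% and 18.2% of all probe sets tested). Against WT Scl-, 5 lay above and 4 below (21.7% and 19.5% of all). The part of such cells in the Dnmt3a and Dnmt3b values was not tested.

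Dnmt3l, the accessory subunit of germ cells and ES cells, was not above the dim limit on any array. Its single probe set read between 3.84 and 4.51, and no comparison was made. Zfp42, a marker of naive ES cells, was under the limit on 2 WT arrays (4.04 and 4.42) and above it on the other four (5.37 to 5.6). Of 15 ES cell markers, Tfcp2l1 and Nr0b1 were dim on all arrays and 8 were above the limit on all.

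The 3 TET genes had different patterns, and none passed the test. Tet2 read 8.66 and 9.73 in WT Scl+, 8.23 and 8.9 in WT Scl-, and 8.22 and 7.9 in SclKO. Its range of 1.83 log units was the widest among the probe sets of the 10 genes and among the wider ones on the array (percentile 95.7). SclKO stood -1.13 log units from WT Scl+ (SE 0.4, 2.19-fold or 3.1-fold lower, 95% interval -2.11 to -0.16, limma adjusted p = 0.334). The size leaned on 1 array: without WT Scl+ replicate 2 it was -0.59, and without WT Scl+ replicate 1 it was -1.67. The WT fractions differed by 0.63 log units (SE 0.4, limma adjusted p = 0.688), with overlapping arrays, and 0.09 without WT Scl+ replicate 2. Both SclKO arrays were the lowest of the 6, but SclKO replicate 1 was below WT Scl- replicate 1 by so little (8.22 and 8.23) that centring each array on its median removed the gap. The fainter Tet2 probe set gave -0.42 from WT Scl+ (SE 0.29) and -0.45 from WT Scl- (SE 0.29), with r = 0.8 to the first. Between the WT fractions it gave -0.03 (SE 0.29), so the probe sets disagreed there.

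Tet3, the TET enzyme of the oocyte and of neural cells, read 7.44 and 7.35 in WT Scl+, 6.65 and 6.91 in WT Scl-, and 6.94 and 6.17 in SclKO. Both WT Scl+ arrays were above all others, and here they lay close together. Between the WT fractions it differed by 0.61 log units (SE 0.28, 1.53-fold or 1.85-fold, limma adjusted p = 0.574), and 0.49 to 0.74 with each array left out in turn. SclKO minus WT Scl+ was -0.84 (SE 0.28, 1.79-fold or 2.32-fold lower, 95% interval -1.51 to -0.17, limma adjusted p = 0.308). Without SclKO replicate 2, the lowest array, that difference was -0.45. SclKO and WT Scl- overlapped. This gene has a single probe set, so there was no other reading to set beside it. Beside these values, the blood and endothelial markers differed between the same groups, of which limma called 0. All 12 had a positive difference between WT Scl+ and WT Scl- (43.1% of all probe sets tested, median 1.77 log units). All 12 had a negative one for SclKO against WT Scl+ (43.1% of all, median -2.39). All 12 were above the dim limit on both WT Scl+ arrays and 9 of 12 on those of each other group. Their part in the Tet2 and Tet3 values was not tested.

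Tet1, the TET enzyme of ES cells, read 7.73 and 7.44 in WT Scl+, 8.22 and 7.69 in WT Scl-, and 8.14 and 7.53 in SclKO, with all groups overlapping. All 4 Tet1 probe sets read lower in WT Scl+ than in WT Scl-, by differences of -0.46 to -0.2 log units. WT Scl+ replicate 2 was the lowest array on each of them. The smallest limma adjusted p among them was 0.59, for the 1 of the 4 (-0.39 log units, SE 0.18) whose WT groups did not overlap (6.76 and 6.57 against 7.01 and 7.1). Without WT Scl+ replicate 2 the main probe set differed by -0.23 log units. SclKO and WT Scl- differed by -0.12 (SE 0.28, 95% interval -0.81 to 0.57).

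**Figure D3:**
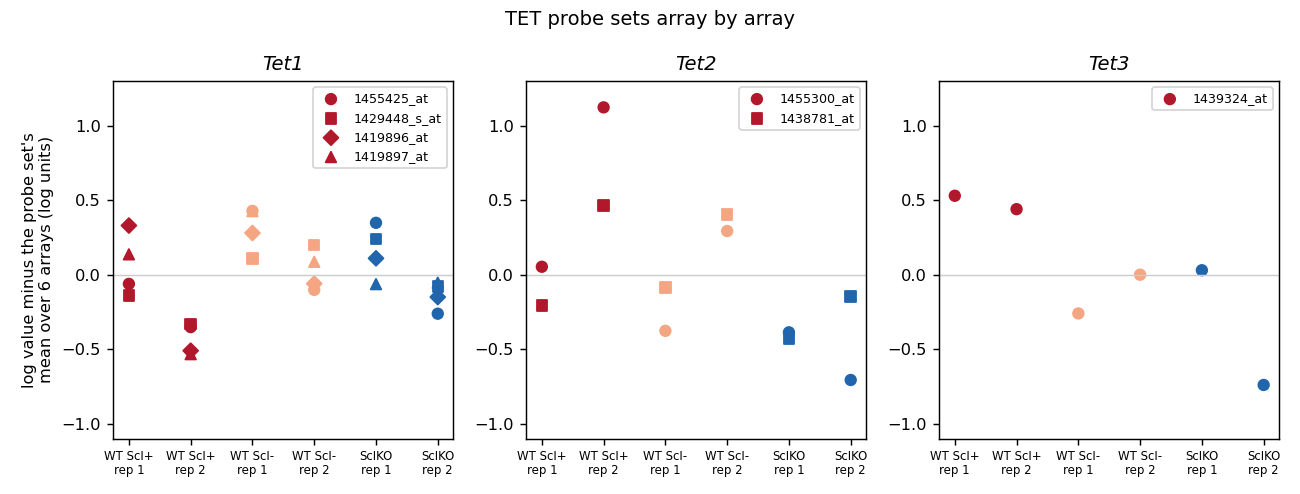
TET probe sets on the 6 arrays (x axis), each as its log value minus its own mean over the arrays (y axis, log units). Marker shape names the probe set and colour the group (red WT Scl+, orange WT Scl-, blue SclKO). Tet1 and Tet2 have opposite extremes on WT Scl+ replicate 2, while both WT Scl+ arrays of Tet3 lie together above the rest.

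Both imprint keepers read highest in SclKO. Trim28, the corepressor, read 10.69 and 10.47 in WT Scl+, 10.83 and 10.58 in WT Scl-, and 11.07 and 10.89 in SclKO. Its other probe set read 10.71 and 10.46, 10.7 and 10.53, and 11.14 and 10.94 in the same order, and the pair correlated at r = 0.96. On both, the SclKO arrays lay above all 4 WT arrays. The difference from WT Scl+ was 0.4 log units (SE 0.18, 1.32-fold or 1.49-fold, limma adjusted p = 0.422) and 0.45 (SE 0.18, limma adjusted p = 0.371). From WT Scl- it was 0.27 (limma adjusted p = 0.947) and 0.42 (limma adjusted p = 0.898). With each array left out in turn the main probe set kept 0.29 to 0.51 log units from WT Scl+ and 0.15 (without WT Scl- replicate 2) to 0.4 from WT Scl-. The 2 WT fractions differed by -0.13 (SE 0.18).

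Zfp57, the zinc finger protein that brings Trim28 to imprinted regions, was above the dim limit on all arrays. It read 7.95 and 7.75 in WT Scl+, 7.84 and 7.97 in WT Scl-, and 7.98 and 8.08 in SclKO. SclKO replicate 1 lay barely above the highest WT array, and the 6 arrays spanned 0.34 log units (percentile 14.8 of ranges). SclKO stood 0.18 log units from WT Scl+ (SE 0.16, 95% interval -0.22 to 0.58, limma adjusted p = 0.666), and 0.08 without WT Scl+ replicate 2. SclKO minus WT Scl- was 0.13 (SE 0.16, 95% interval -0.27 to 0.52, limma adjusted p = 0.983).

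**Figure D4:**
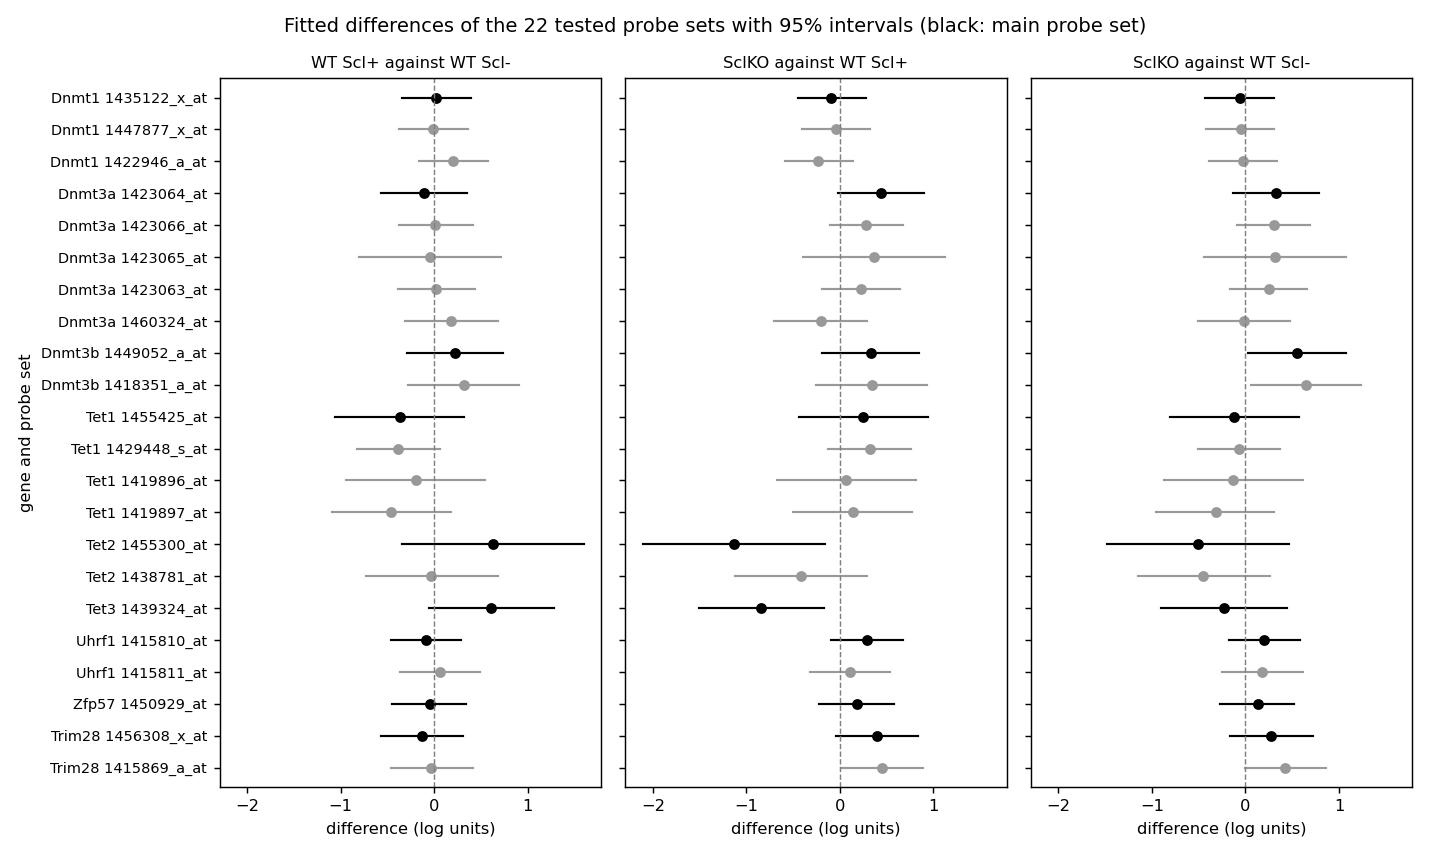
Fitted difference of each of the 22 tested probe sets (x axis, log units, first group minus second) in the 3 comparisons, with 95% intervals from limma, main probe sets in black and others in grey. Intervals that leave out 0 belong to Tet2, Tet3 and 1 Trim28 probe set for SclKO against WT Scl+ and to both Dnmt3b probe sets for SclKO against WT Scl-, before adjustment.

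Read together, 8 of the 22 probe sets (36.4%) had both SclKO arrays above all 4 WT arrays, against 11.7% of all probe sets tested, a count made after the values were seen. They belong to Dnmt3a (3), Dnmt3b, Uhrf1, Zfp57 and Trim28 (2), so they share targets and are not 8 separate measurements. In the other direction 1 of 22 (4.55%), the main Tet2 probe set, was below all WT arrays, against 8.04% of all. With 1 array left out in turn the first count was 8 to 10, and the share of all probe sets 14.5% to 26.5%. Leaving out an array can only keep or raise that count, so this does not test its stability. Without SclKO replicate 1 the share was 36.4% of the members' probe sets, against 21.0% of all. SclKO was above WT Scl+ without overlap for 9 of 22 probe sets (24.4% of all) and above WT Scl- for 11 (21.7% of all). Below without overlap were 5 (18.2% of all) and 3 (19.5% of all). WT Scl+ was above WT Scl- without overlap for 3 of 22 (16.6% of all) and below for 2 (21.2% of all). The median difference over the 9 main probe sets tested was 0.25 log units for SclKO against WT Scl+, where that of all probe sets tested was 0.05. Without WT Scl+ replicate 2 the members' median was 0.09, and 0.35 without WT Scl+ replicate 1. It was 0.13 against 0.01 for SclKO against WT Scl-, and -0.05 against -0.04 between the WT fractions.

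Other genes of the pathway were read from lists, by the main probe set of each gene, and 0 genes of any of the 6 lists were called by limma in any comparison. For partners of the methyltransferases (13 of 14 tested) the median was 0.12 log units for SclKO against WT Scl+ and -0.1 for WT Scl+ against WT Scl-. Among them Zbtb24, a factor whose loss weakens methylation at centromeric repeats, read 7.11 and 7.29 in WT Scl+ and 6.7 to 6.86 on the other 4 arrays, 0.42 log units above WT Scl- (SE 0.16, limma adjusted p = 0.518). Uhrf2, the relative of Uhrf1, read -0.46 log units in SclKO against WT Scl- (SE 0.2, limma adjusted p = 0.898). Methyl-CpG readers (7 of 8 tested) had a median of 0.3 for WT Scl+ against WT Scl-, with 6 of 7 positive (43.1% of all probe sets tested). Their median was 0.31 for SclKO against WT Scl- and -0.05 for SclKO against WT Scl+. Mbd2, a reader that recruits the NuRD complex, was at 8.6 and 8.85 in WT Scl+, 7.74 and 8.24 in WT Scl-, and 8.42 and 8.37 in SclKO (WT Scl+ minus WT Scl- 0.74 log units, SE 0.22, limma adjusted p = 0.452).

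Of the genes of demethylation and base excision, 12 of 15 were tested, with medians of 0.06 log units between the WT fractions and -0.05 for SclKO against WT Scl+. Gadd45g, a stress-induced gene linked to active demethylation, read 8.47 and 9.12 in WT Scl+, 6.42 and 8.21 in WT Scl-, and 7.03 and 7.56 in SclKO. It differed by -1.5 log units in SclKO against WT Scl+ (SE 0.58, limma adjusted p = 0.366). Genes of methyl donor supply (10 of 14 tested) had medians of -0.06 between the WT fractions, 0.1 for SclKO against WT Scl+ and 0.11 for SclKO against WT Scl-. Mat2b, the regulatory subunit of the enzyme that makes S-adenosylmethionine, read 8.97 and 8.96 in SclKO, below all WT arrays (9.15 to 9.45), with -0.42 log units from WT Scl+ (SE 0.15, limma adjusted p = 0.337).

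Partners of Zfp57 and Trim28 (19 of 20 tested) had a median of 0.09 log units in both comparisons with SclKO, with 13 of 19 positive in each. Of all probe sets tested, 56.9% were positive against WT Scl+ and 52.1% against WT Scl-. Zfp932, a zinc finger gene whose protein represses retroviral elements, read 7.42 and 7.35 in SclKO and 6.69 to 7.11 on the WT arrays. It stood 0.63 log units above WT Scl+ (SE 0.19, limma adjusted p = 0.28) and 0.49 above WT Scl- (SE 0.19, limma adjusted p = 0.898). Zfp809, which silences proviruses through Trim28, read 8.48 and 8.17 in SclKO, 8.35 and 8.15 in WT Scl+ but 7.49 and 7.93 in WT Scl-. Trim24, a relative of Trim28, ran the other way from Trim28, at -0.57 log units in SclKO against WT Scl+ (SE 0.18, limma adjusted p = 0.293).

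Germline genes that promoter methylation keeps silent in the body were mostly dim. Of 16 with a probe set, 10 were under the limit on every array, among them Dazl, Ddx4, Mael and Taf7l, and 5 were tested. Rhox5, a homeobox gene known to be held off by methylation, read 8.92 and 9.01 in WT Scl+, 8.26 and 8.2 in WT Scl-, and 8.5 and 8.3 in SclKO. WT Scl+ was above both other groups without overlap, by 0.74 log units from WT Scl- (SE 0.16, limma adjusted p = 0.439), while SclKO differed from WT Scl+ by -0.56 (SE 0.16, limma adjusted p = 0.26). Tex19.1 read 5.56 and 5.23 in WT Scl+ and 4.75 to 4.97 elsewhere. Sycp3, a meiotic gene, read highest in WT Scl- (6.38 and 6.73). Methylation itself was not measured in these samples.

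The genes whose pattern over the 6 arrays was most like that of the 3 widest-ranging members were taken by Pearson r among 7769 genes with a range of at least 0.5 log units. For Tet2 they were Mad2l2 (r = 0.997), E130308A19Rik (0.993) and Mdm2 (0.99), and 184 genes had r above 0.9. For Tet3 they were Grap2 (0.977), Cdkn3 (0.976) and Ap3m2 (0.975), with 69 genes above 0.9. For Tet1 they were Frmd6 (0.99), Bmp5 (0.974) and Hars2 (0.97), with 81 above 0.9. With 6 points, of which WT Scl+ replicate 2 is often an extreme, such values describe these arrays only.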

How the data were processed

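The authors deposited 1 value per probe set and sample. Per the submitters' processing notes they used RMA, affy and limma, with no versions; the unit and base of the values and any further steps are not given in the sources used here. The deposited values reached 2822995, far above the 65535 of a 16-bit scanner, so their natural log was taken. Of 45101 probe sets, 64 were controls, and a platform annotation gave 34958 exactly 1 symbol, 932 several and 9211 none. Symbols were updated through Entrez identifiers for 34754 and kept for 204.

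Testing required a value above the 40th percentile of its own array on 2 or more of the 6 arrays. One limma 3.58.1 model in R 4.3.3 held a mean for each of the 3 groups over all 6 arrays (residual degrees of freedom 3, prior 3.13), two-sided, with Benjamini-Hochberg adjustment over the 28362 probe sets tested, and calls at an adjusted p under 0.05. The fit was tested on simulated data, with added shifts larger than most of the differences of the members. It therefore does not show that differences of their size would be called. Arrays have no read depth, and their number limits the precision.

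The genes and lists were chosen with earlier results of these data known. The genes named were all 10 members, Tal1 and Kdr, genes among the 3 with the lowest unadjusted p in each list and comparison, and the 3 most alike genes of 3 members. List genes that were dim on every array (such as Dazl, Ddx4, Mael, Taf7l, Tfcp2l1 and Nr0b1) were named after their values were seen. Tried beside this were other filters, a floor, a block on the replicate number, other scalings, 1 value per gene, fewer arrays in the fit, a trended prior and leaving out each array.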

Additional observations from a re-analysis of the deposited data

How the results depend on the processing

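Beside the main fit 16 alternatives were run, among them leaving out each array in turn. Under those that left out no single array, 0 member probe sets were called in any comparison. The lowest limma adjusted p of a main probe set among them was 0.225. Of 432 recomputed differences of main probe sets, 421 kept their direction and 11 changed sign. Many of the 432 could not change sign, because the alternative left the group means of a main probe set as they were. These were the other filters, the floor, the replicate block, the main probe set alone per gene and the trended prior. The same holds for fitting only the arrays compared and for leaving out an array of the group not compared. The count of 421 therefore does not measure stability. For WT Scl+ against WT Scl-, Dnmt3a (-0.11) read 0.01 as the mean of its probe sets, and with each array left out it ranged from -0.27 to 0.04, Dnmt3b from -0.01 to 0.46, Zfp57 from -0.16 to 0.05 and Dnmt1 from -0.03 to 0.08. With each array left out, Tet1 ranged from -0.06 to 0.55 for SclKO against WT Scl+ and from -0.43 to 0.18 for SclKO against WT Scl-, and Tet3 from -0.61 to 0.16 for SclKO against WT Scl-. The count of 8 probe sets with SclKO above all WT arrays was 8 after median centring and 8 after quantile normalisation, which left Zfp57 out.

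Over all probe sets, leaving out each array gave 0 to 46 calls for WT Scl+ against WT Scl- (main 0), 0 to 1179 for SclKO against WT Scl+ (main 3) and 0 to 3 for SclKO against WT Scl- (main 3). For SclKO against WT Scl+, leaving out 1 of the WT Scl- arrays gives the same fit as only the 4 arrays compared, given below. The high ends of the first and second came without WT Scl+ replicate 1, which leaves the array farthest from the rest alone in its group and is assumed to vary like the others. For SclKO against WT Scl+ the count was 6 with the replicate block, 1 with 1 probe set per gene, 27 with only the 4 arrays compared and 37 with a trended prior. For SclKO against WT Scl- it was 6 with the stricter filter, 6 with the floor, 1 with 1 probe set per gene and 11 with a trended prior. The replicate block called 0 member probe sets. Same-numbered arrays deviated together weakly (r = 0.21 to 0.24 between groups of 2), and with 2 numbers and no label that ties them this is no pairing. Of the related lists, only demethylation and base excision had calls under any alternative, 0 to 2 with each array left out (2 without WT Scl+ replicate 1). The cause of these shifts was not tested.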
